A study of Mus musculus with 6 samples.

Results

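The 10 genes described here are regulators of mitochondrial biogenesis, the making of new mitochondria and of new copies of their genome. They were chosen by symbol, by no threshold on their values: the coactivator gene Ppargc1b, the nuclear receptor gene Esrra, the oncogene Myc, the nuclear respiratory factor genes Nrf1 and Gabpa, and Tfam, Tfb1m, Tfb2m, Polrmt and Polg, whose products copy, transcribe or modify the nucleic acids of the mitochondrion. They are 10 of the 23504 genes in the expression table, and all 10 averaged 1 FPKM or more, the level from which genes were tested. FPKM counts fragments after scaling to the length of the transcript and the depth of the library. The series holds 6 RNA-seq libraries of bone marrow-derived macrophages (BMMs) from C57BL/6 mice, 3 labelled DMSO and 3 labelled DASA-58, a small-molecule activator of the glycolytic enzyme pyruvate kinase M2. The marrow came from male mice aged 6 to 8 weeks, the macrophages were grown in M-CSF, and RNA was taken after 3 days with DASA-58 or an equal volume of its solvent, DMSO. The labels do not name RANKL, the cytokine that drives these macrophages to become osteoclasts, but the study describes both groups as induced with it during the treatment; the osteoclast genes Ctsk and Acp5 were abundant in all 6 libraries, with means of 210 and 105 FPKM with DMSO and 110 and 55.6 FPKM with DASA-58. The comparison asks how the transcriptome of such cells differs when the activator is present.

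Depth, recovered from the deposited values, ran from 18209396 to 18853041 fragments with DMSO and from 18191560 to 18968556 with DASA-58. A count of 3 fragments, the upper limit that a count of 0 allows, corresponds to 0.158 to 0.165 FPKM for a transcript of 1000 bases, and intervals and limits of this kind cover counting error only. Nothing in the labels says that the 3 libraries of a group came from separate mice or cultures, so p-values measure the spread between these samples, which may be technical. Among 10965 genes tested with limma and Benjamini-Hochberg adjustment, 798 passed an adjusted p of 0.05 downward with DASA-58 and 465 upward. These counts depended on the scaling between libraries: with trimmed-mean scaling (TMM) 509 genes were lower and 600 higher, with centring on the median 504 and 597, and with quantile normalization 588 and 600.

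PGC-1β, the product of Ppargc1b, binds transcription factors and raises their output; its best known partner in mitochondrial biogenesis is the oestrogen-related receptor ERRα, encoded by Esrra. Together with NRF1 and the ETS-family factor GABP, of which Gabpa encodes the DNA-binding subunit, ERRα acts on nuclear genes for the respiratory chain and on genes for the machinery of mitochondrial DNA. Osteoclasts are rich in mitochondria, and PGC-1β, ERRα and MYC have each been linked to the rise in respiration that goes with their differentiation.

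Of the 10 regulators, 2 were lower with DASA-58, Myc at 63.9% and Ppargc1b at 71.9% of the DMSO mean, and 0 were higher (limma). At an unadjusted limma p under 0.05, 5 were lower and 0 higher, and the share of all genes past it in each direction is not given here. That threshold is loose here: Tfam, with the largest of these p-values at 0.032, ranked 2524 by p among the 10965 genes tested. In bulk libraries, fewer cells of a type that carries an RNA and less of that RNA per cell cannot be told apart. At the adjusted threshold 7.28% of all genes tested were lower and 4.24% higher. For 5 regulators the highest DASA-58 value lay under the lowest DMSO value (Myc, Ppargc1b, Tfb2m, Polrmt and Tfam), as it did for 21.6% of all genes tested. Fitted log2 fold changes of FPKM + 1 were below 0 for all 10 as deposited, but Polg was above 0 under TMM, median centring and quantile normalization. The median over the 10 was -0.09, beside -0.028 over all genes tested, of which 59.8% were below 0. With 3 libraries a group an exact two-sided permutation test of 1 gene cannot give a p below 0.10.

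**Figure D1:**
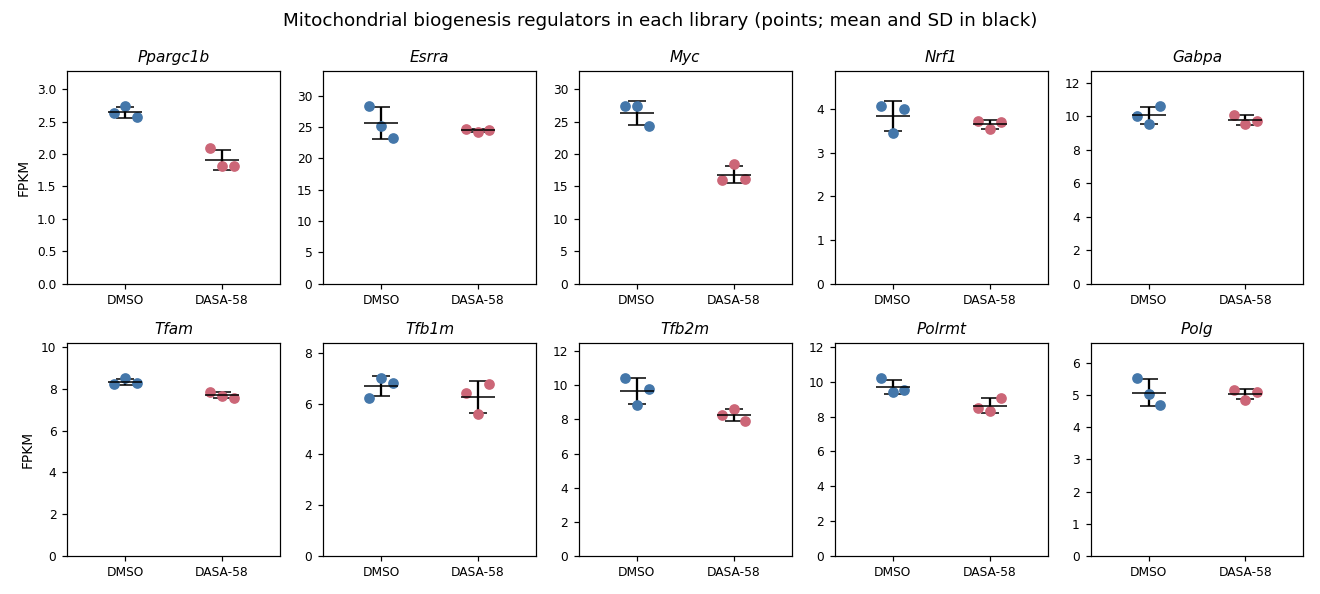
FPKM of each of the 10 regulators (y axes, each from 0) in the 3 DMSO and 3 DASA-58 libraries (points), with the group mean and its SD (n = 3). Myc fell from 26.4 to 16.9 FPKM and Ppargc1b from 2.65 to 1.91 FPKM; the points of Esrra, Tfb1m, Nrf1, Gabpa and Polg overlap between groups.

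Ppargc1b (ENSMUSG00000033871) was the least abundant of the 10 in the DMSO libraries. It stood at 2.64, 2.74 and 2.57 FPKM with DMSO and at 2.09, 1.82 and 1.81 FPKM with DASA-58. The groups did not overlap, and the means were 2.65 ± 0.0832 and 1.91 ± 0.159 FPKM (SD, n = 3). The log2 fold change of FPKM + 1 was -0.33 (SE 0.065; 95% interval -0.48 to -0.18; limma adjusted p = 0.018), and the ratio of means without the added 1 was -0.48 as a log2 value. The level rests on 187 to 206 fragments with DMSO and 132 to 157 with DASA-58, for which counting alone gives a coefficient of variation of 7.16% and 8.39%, beside the observed 3.14% and 8.34%. The adjusted p was 0.06 without DMSO replicate 1, 0.056 without DMSO replicate 2, 0.062 without DASA-58 replicate 2 and 0.066 without DASA-58 replicate 3, and it was 0.042 and 0.026 without the remaining libraries, DMSO replicate 3 and DASA-58 replicate 1.

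Esrra (ENSMUSG00000024955), the gene of the receptor that PGC-1β coactivates, came after Myc in mean level with DMSO, with overlapping ranges, and was the most abundant of the 10 with DASA-58. Its values were 28.3, 25.1 and 23.3 FPKM with DMSO and 24.6, 24.2 and 24.5 FPKM with DASA-58. The groups overlapped, because DMSO replicate 3 lay below all DASA-58 libraries. DMSO replicate 1 was the highest of the 6, and the DASA-58 libraries lay close together (25.6 ± 2.5 against 24.4 ± 0.214 FPKM). The log2 fold change was -0.06 (95% interval -0.20 to 0.09; limma adjusted p = 0.59), and it was 0.01 without DMSO replicate 1.

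Within a library the ratio of Ppargc1b to Esrra does not depend on how libraries are scaled to each other. It was 0.0933, 0.109 and 0.110 with DMSO and 0.0850, 0.0752 and 0.0739 with DASA-58. All 3 DASA-58 ratios lay below the DMSO ratios, a log2 difference of -0.42 with an exact two-sided permutation p of 0.10, the smallest this design allows, and 0.20 after adjustment over the 4 ratios computed. These 4 ratios were chosen after the levels of the genes were known.

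Myc (ENSMUSG00000022346; GRCm38 chr15:61985391-61990374, plus strand) encodes a transcription factor that drives ribosome production, nucleotide synthesis and cell growth as well as nuclear genes of mitochondria. Its values were 27.4, 27.4 and 24.3 FPKM with DMSO and 16.0, 18.4 and 16.1 FPKM with DASA-58. Every DASA-58 library lay below every DMSO library, with means of 26.4 ± 1.77 and 16.9 ± 1.31 FPKM (SD, n = 3). The log2 fold change of FPKM + 1 was -0.62 (SE 0.065; 95% interval -0.77 to -0.47; limma adjusted p = 0.0012), the largest in size among the 10. Myc ranked 134 by p among all genes tested. The values rest on 1203 to 1401 fragments with DMSO and 821 to 908 with DASA-58, and the spread between libraries (6.72% and 7.80%) was wider than counting alone gives (2.75% and 3.42%). With any 1 library left out, the log2 fold change of Myc stayed between -0.68 and -0.58 and its adjusted p between 0.0022 and 0.0083.

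Nrf1 (ENSMUSG00000058440; GRCm38 chr6:30047988-30153458, plus strand) encodes nuclear respiratory factor 1. It read 4.07, 3.45 and 4.00 FPKM with DMSO and 3.73, 3.54 and 3.71 FPKM with DASA-58. The DASA-58 values fell inside the DMSO range. The difference was -0.05 on the log2 scale, with a 95% interval of -0.20 to 0.10 (limma adjusted p = 0.65).

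Gabpa (ENSMUSG00000008976; GRCm38 chr16:84834925-84863779, plus strand) behaved likewise at a higher level. Its values were 10.0, 9.54 and 10.6 FPKM with DMSO and 10.1, 9.53 and 9.74 FPKM with DASA-58, so the groups overlapped. The difference was -0.04 on the log2 scale (95% interval -0.14 to 0.07; limma adjusted p = 0.67). For Nrf1 and Gabpa these intervals leave room for a drop of up to 0.20 and 0.14 on this scale. The ratio of Nrf1 to Gabpa within a library was 0.406, 0.362 and 0.377 with DMSO and 0.370, 0.372 and 0.381 with DASA-58, a log2 difference of -0.03 (exact permutation p = 0.80, adjusted 0.80).

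**Figure D2:**
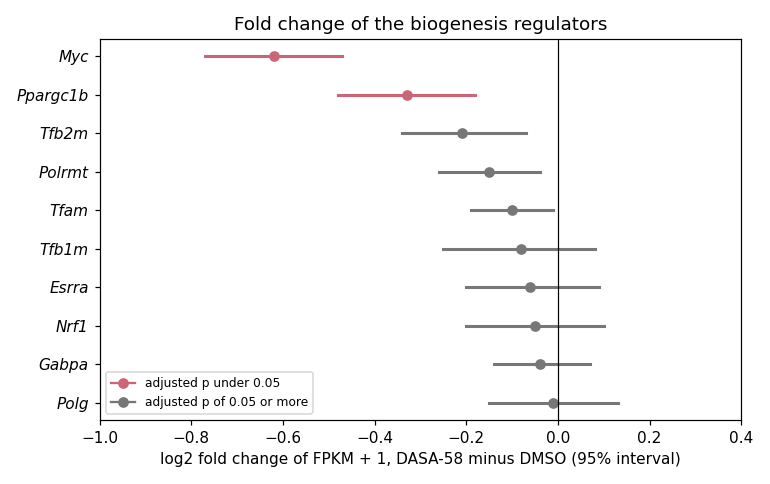
Log2 fold change of FPKM + 1, DASA-58 minus DMSO (x axis), with its 95% interval from limma for each of the 10 regulators; the line at 0 marks no difference. Myc at -0.62 and Ppargc1b at -0.33 lie farthest from 0, and Polg at -0.01, which turned positive under TMM, median centring and quantile normalization, lies nearest.

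The mitochondrial genome is transcribed by the polymerase POLRMT with TFAM, which bends and packages mitochondrial DNA, and TFB2M, which opens the promoter. TFB1M, a relative of TFB2M, methylates the small mitochondrial ribosomal RNA. Tfb2m, Polrmt and Tfam were each below the DMSO range in all 3 DASA-58 libraries, and none passed the threshold after adjustment over all genes.

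Tfb2m (ENSMUSG00000026492; GRCm38 chr1:179528055-179546267, minus strand) had values of 10.4, 8.87 and 9.79 FPKM with DMSO and 8.24, 8.59 and 7.90 FPKM with DASA-58. The highest DASA-58 library was close below the lowest DMSO library. The means were 9.68 ± 0.76 and 8.24 ± 0.345 FPKM, which is 85.1% of DMSO. On the log2 scale the difference was -0.21 (SE 0.059; 95% interval -0.34 to -0.07; limma adjusted p = 0.064). The adjusted p was 0.029 without DMSO replicate 2, the lowest of its group, and 0.041 when testing was limited to genes averaging 5 FPKM or more. With any other library left out it was 0.094 to 0.17, and it was 0.18 without variance shrinkage.

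Tfb1m (ENSMUSG00000036983; GRCm38 chr17:3519256-3557781, minus strand) had values of 6.24, 6.99 and 6.83 FPKM with DMSO and 6.40, 5.59 and 6.79 FPKM with DASA-58. The groups overlapped, and the log2 fold change was -0.08 (95% interval -0.25 to 0.08; limma adjusted p = 0.49). It had few fragments, 152 to 175 and 135 to 171, and counting alone gives coefficients of variation of 7.81% and 8.02%. The ratio of Tfb2m to Tfb1m was 1.66, 1.27 and 1.43 with DMSO and 1.29, 1.54 and 1.16 with DASA-58. These ratios overlapped (log2 difference -0.13; exact permutation p = 0.50, adjusted 0.67), so a difference between the relatives was not shown.

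Polrmt (ENSMUSG00000020329; GRCm38 chr10:79736123-79746581, minus strand) had values of 10.2, 9.45 and 9.51 FPKM with DMSO and 8.51, 8.31 and 9.10 FPKM with DASA-58. The groups did not overlap and the DASA-58 mean was 89.0% of the DMSO mean. The limma fit put the log2 fold change at -0.15 (SE 0.048; 95% interval -0.26 to -0.04; adjusted p = 0.084).

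Tfam (ENSMUSG00000003923; GRCm38 chr10:71225464-71238280, minus strand) varied little between the libraries of a group. Its values were 8.22, 8.50 and 8.28 FPKM with DMSO and 7.87, 7.67 and 7.57 FPKM with DASA-58. The gap between the groups was small beside the level, at 92.5% of DMSO. The fitted difference was -0.10 on the log2 scale (SE 0.038; 95% interval -0.19 to -0.01; limma adjusted p = 0.14). Its coefficients of variation of 1.78% and 2.03% were below the 3.83% and 3.96% that counting alone gives.

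Polg (ENSMUSG00000039176; GRCm38 chr7:79446231-79466362, minus strand) encodes the catalytic subunit of the polymerase that copies mitochondrial DNA. Its values were 5.52, 5.05 and 4.68 FPKM with DMSO and 5.16, 4.85 and 5.11 FPKM with DASA-58. All DASA-58 values lay inside the DMSO range, and the mean was 99.2% of DMSO. The log2 fold change was -0.01 as deposited (95% interval -0.15 to 0.13; limma adjusted p = 0.95) and 0.02 with quantile normalization. The ratio of Polrmt to Polg, the RNA and DNA polymerases of the mitochondrion, was 1.84, 1.87 and 2.03 with DMSO and 1.65, 1.71 and 1.78 with DASA-58. The ratios did not overlap (log2 difference -0.16; exact permutation p = 0.10, adjusted 0.20).

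Upstream sequences of the regulators were searched for letters that their own family members bind, since NRF1 and GABP are known for acting on genes of the mitochondrial machinery. RefSeq windows of the GRCm38.p6 build, from 250 bases before to 50 bases after the start, were at hand for 8 of the 10 genes in 9 windows, and both strands were read. No window was at hand for Myc or Ppargc1b, the regulators that passed the test, so the counts below do not cover them. The ETS core CCGGAAG lay in 4 of the 9 windows (Tfam, Polrmt, Polg and Gabpa), beside 19.5% of the windows of genes tested and 8.86% of all windows. The NRF1 core GCGCATG lay in 3 (Polrmt, Esrra and Tfb2m), beside 7.41% and 3.91%. The E-box CACGTG of MYC, the ERR element TCAAGGTCA and the CREB element TGACGTCA were in 0 of the 9, beside 10.4%, 0.301% and 3.19% of the windows of genes tested. The 30 bases around each of these 7 matches are shown, read along the gene's strand, so that the cores can be seen in place. Capitals mark the ETS core CCGGAAG or its reverse complement CTTCCGG, and the NRF1 core GCGCATG or its reverse complement CATGCGC.
Tfam, ETS core, chr10:71238073-71238102, minus strand: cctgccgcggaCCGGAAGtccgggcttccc
Polrmt, ETS core, chr10:79746606-79746635, minus strand: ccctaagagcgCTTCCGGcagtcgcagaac
Polg, ETS core, chr7:79466293-79466322, minus strand: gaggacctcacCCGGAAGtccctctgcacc
Gabpa, ETS core, chr16:84835020-84835049, plus strand: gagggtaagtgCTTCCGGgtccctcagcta
Polrmt, NRF1 core, chr10:79746696-79746725, minus strand: agagtatttctGCGCATGctctcttgccgc
Esrra, NRF1 core, chr19:6921823-6921852, minus strand: cccctgttttgCATGCGCaggccggccccg
Tfb2m, NRF1 core, chr1:179546244-179546273, minus strand: taggtcgttcgCATGCGCcattcgtaatgt
The ETS core began 47 bases before the RefSeq start in Tfam and 38 bases before it in Polg, and on the opposite strand 43 bases before it in Polrmt and 93 in Gabpa. The NRF1 core began 133 bases before the start in Polrmt and, on the opposite strand, 33 bases before it in Esrra and 15 bases after it in Tfb2m. The stretches of Tfam, Polg and Gabpa lie inside the gene as GENCODE draws it, whose outermost start is farther upstream, that of Tfb2m lies partly inside, and those of Polrmt and Esrra lie outside. A match of letters is a description of the window and not a bound site, and the libraries hold no measure of binding. Tfam and Polrmt, with non-overlapping groups, and Polg and Gabpa, with overlapping groups, all carried the ETS core.

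Ordered by their DMSO level per length of transcript, the regulators ran from Myc through Esrra, Gabpa, Polrmt, Tfb2m, Tfam, Tfb1m, Polg and Nrf1 to Ppargc1b. The ranges of neighbours overlapped for Myc with Esrra, for Gabpa with Polrmt and for Polrmt with Tfb2m, and from Tfb2m downward neighbours did not overlap. Fold changes did not follow this order: the highest and the lowest member were the pair that passed the test.

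Genes around each regulator were counted by lists chosen with earlier results of these data known. Among partners of PGC-1 and ERR, 21 of 27 genes were tested, 2 were lower and 0 higher, near the 7.28% and 4.24% of all genes tested, and the median log2 fold change was -0.05 beside -0.028 over all genes. Of those not tested, Ppargc1a, Esrrb, Ppara and Prox1 had no deposited values. Pprc1, which encodes the third PGC-1 family member PRC, was at 7.48, 8.09 and 7.80 FPKM with DMSO and 6.31, 6.60 and 6.21 FPKM with DASA-58. It fell to 81.8% of DMSO (log2 fold change -0.25, SE 0.045; limma adjusted p = 0.012), with no overlap. Hcfc1, a host cell factor that binds PGC-1 proteins, fell to 88.5% (adjusted p = 0.037), but passed in only 1 of the 6 fits that left out a library.

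In the network of MYC and its dimer partners, 17 of 19 genes were tested, 2 were lower and 1 was higher, close to the 7.28% and 4.24% of all genes tested. Mycl, a paralog of Myc, was at 5.06, 5.39 and 5.39 FPKM with DMSO and 2.92, 3.70 and 2.53 FPKM with DASA-58. At 57.8% of DMSO (log2 fold change -0.64, SE 0.099; limma adjusted p = 0.0067) it stood beside Myc at 63.9%. Mxd3, which encodes a partner of MAX that opposes MYC, was higher at 138% (log2 fold change 0.37, SE 0.088; adjusted p = 0.033), and Ruvbl1, an ATPase of chromatin complexes that binds MYC, was lower at 85.8% (adjusted p = 0.014). Mxd3 passed in 1 of the 6 fits that left out a library, Ruvbl1 in 4 and Mycl in 6.

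Of 30 known MYC targets of the nucleolus and of growth, 28 were tested, 15 were lower and 0 higher, beside 7.28% and 4.24% of all genes; 12 were lower and 1 higher under TMM. In 22 of the 28 every DASA-58 library lay below every DMSO library, beside 21.6% of all genes. In 2 every DASA-58 library lay above, and the share of all genes that did so was not counted. The median log2 fold change was -0.17. Mybbp1a, a nucleolar protein gene, stood at 44.0, 45.6 and 44.3 FPKM with DMSO and 36.4, 37.8 and 37.1 FPKM with DASA-58 (83.1%; limma adjusted p = 0.0018). Nop16, a factor of the large ribosomal subunit, stood at 26.9, 25.8 and 24.7 FPKM against 20.6, 19.9 and 20.4 FPKM (78.8%; adjusted p = 0.0021). Cad, which encodes the enzyme that starts pyrimidine synthesis, fell to 80.4% (adjusted p = 0.0092). These 3 genes passed with each library left out in turn, while the number of lower targets ran from 7 without DASA-58 replicate 3 to 13 without DASA-58 replicate 2; it was 8 without DMSO replicate 1.

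For upkeep and replication of mitochondrial DNA, where Polg belongs, 19 of 20 genes were tested, 1 was lower and 1 was higher, beside 7.28% and 4.24% of all genes tested, and the median was -0.02. Tk2, the mitochondrial thymidine kinase, was higher at 115% (10.2, 10.8 and 10.1 against 12.1, 11.7 and 11.8 FPKM; limma adjusted p = 0.027), and Atad3a, a membrane ATPase tied to nucleoids, was lower at 87.6% (adjusted p = 0.043). Both passed in 1 of the 6 fits that left out a library. In transcription and RNA processing, the list of genes that work beside Polrmt, Tfam and Tfb2m, 26 of 29 were tested, 3 were lower and 0 higher, beside the same 7.28% and 4.24%. Elac2, which trims the 3′ ends of transfer RNAs, fell to 83.6%, Mrpl12, a ribosomal protein that also binds POLRMT, to 84.3%, and Tbrg4, a FASTK-family RNA-binding protein gene, to 88.3% (limma adjusted p = 0.023, 0.025 and 0.04). Without DMSO replicate 1 or 2, 0 of this list were lower.

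Protein import and chaperones supply a growing mitochondrion with nuclear-encoded proteins. Of that list 32 of 34 genes were tested, 7 were lower and 0 higher, beside 7.28% and 4.24% of all genes tested, and the median log2 fold change was -0.11; 3 were lower under TMM, median centring and quantile normalization. Tomm40, the channel of the outer membrane, was at 15.9, 15.7 and 15.5 FPKM with DMSO and 12.4, 13.3 and 13.8 FPKM with DASA-58 (83.9%; limma adjusted p = 0.013). Hspd1, the matrix chaperonin HSP60, was at 86.5% (adjusted p = 0.013) and Tomm20, an import receptor, at 88.3% (adjusted p = 0.014). The count fell to 1 without DMSO replicate 1 or DASA-58 replicate 3, and was 3 without DASA-58 replicate 1, 4 without DASA-58 replicate 2 or DMSO replicate 2, and 5 without DMSO replicate 3.

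Fatty acid oxidation, whose genes are classical targets of ERRα, had 19 of 23 genes tested, 2 lower and 0 higher, near the 7.28% lower and 4.24% higher over all genes tested, with a median of -0.07. Acaa2, the thiolase of the pathway, was at 87.7% and Acads, the short-chain dehydrogenase, at 85.7% of DMSO (limma adjusted p = 0.021 and 0.04). Among genes of fission, fusion and mitophagy 17 of 19 were tested, 2 were lower and 0 higher, again near that background, with a median of -0.01. Phb2, a prohibitin of the inner membrane, fell to 84.2% (adjusted p = 0.0071) and Dnm1l, the fission GTPase, to 90.4% (adjusted p = 0.044). Without DASA-58 replicate 1, 2 or 3 the count of lower fatty acid genes was 0, and without DMSO replicate 3 it was 3. Phb2 passed with each library left out in turn, Acaa2 in 3 of the 6 such fits, and Acads and Dnm1l in 1.

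**Figure D3:**
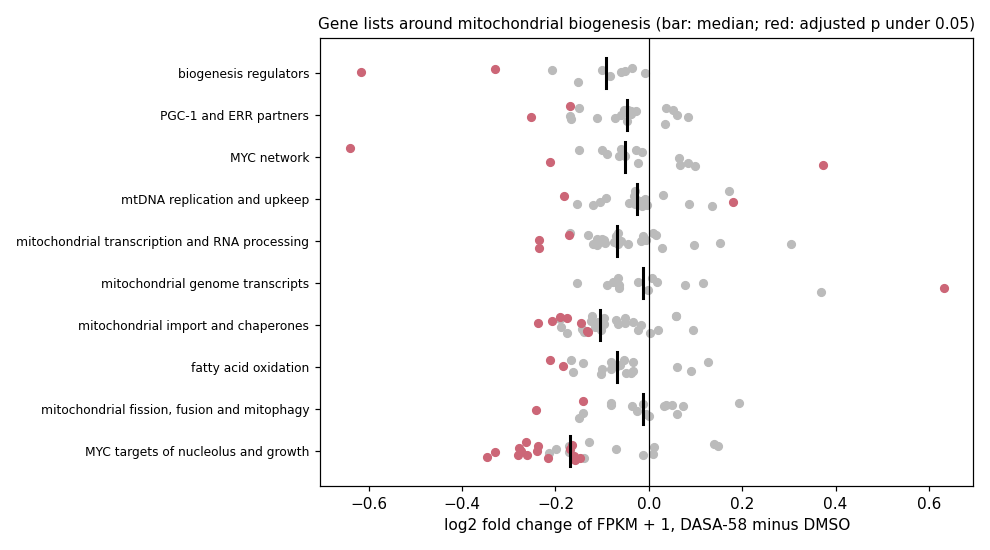
Log2 fold change of FPKM + 1, DASA-58 minus DMSO (x axis), of each tested gene (points) in the regulators and 9 related lists; bars are list medians and red points have an adjusted p under 0.05. Of the lists with a median below -0.1, the nucleolar and growth targets of MYC lie at -0.17 with 15 of 28 lower, and import and chaperones at -0.11 with 7 of 32 lower.

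The mitochondrial genome is the template on which Tfam, Tfb2m, Polrmt and Polg work, and its transcripts were read in the same libraries. As counted, they took 2.22%, 2.27% and 2.35% of all fragments with DMSO and 2.31% in each DASA-58 library. The DMSO libraries thus lay on both sides of the DASA-58 share. This share rests largely on mt-Co1, with 216961 to 232720 fragments with DMSO and 234864 to 245986 with DASA-58. Of 15 genes listed 14 were tested, 0 were lower and 1 was higher, beside 7.28% and 4.24% of all genes tested. The median was -0.01 as deposited and above 0 under TMM, median centring and quantile normalization. It includes mt-Nd3 and mt-Nd4l, which rest on 5 to 13 and 3 to 11 fragments a library. The untested gene was mt-Atp8, with 0 to 2 fragments. The abundant transcripts moved little: mt-Nd1 was at 94.8%, mt-Cytb at 95.4%, mt-Nd2 at 95.7%, mt-Nd5 at 98.3%, mt-Nd4 at 99.8%, mt-Nd6 at 100% and mt-Co1 at 106% of DMSO, with limma adjusted p of 0.11 to 0.97. Of these, mt-Co1, mt-Nd1, mt-Nd2 and mt-Cytb had groups that did not overlap, mt-Co1 higher and the others lower with DASA-58. Every DASA-58 library lay below every DMSO library for 21.6% of all genes tested, and the share lying above was not counted. The ribosomal RNAs mt-Rnr1 and mt-Rnr2 were at 94.0% and 95.6% with overlapping groups (adjusted p = 0.35 and 0.27).

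The transcript that passed was mt-Atp6, a subunit gene of ATP synthase, at 9.12, 10.2 and 10.1 FPKM with DMSO and 16.2, 16.6 and 14.4 FPKM with DASA-58. The groups did not overlap, and the fold change was 0.63 on the log2 scale (SE 0.063; limma adjusted p = 0.0011). Its level is far below that of mt-Co1 and rests on 114 to 131 fragments with DMSO and 186 to 208 with DASA-58. The nuclear genome holds near-identical copies of parts of the mitochondrial genome, and how the counting treated fragments that match both is not given in the sources used here, so this value is uncertain and the part of such fragments in it was not tested. The same limit applies to mt-Co2, at 41.4, 37.3 and 26.7 against 50.2, 51.3 and 35.2 FPKM, and mt-Co3, at 101% of DMSO, whose groups overlapped. It applies as well to mt-Nd3, mt-Nd4l and mt-Atp8, which had few fragments. The strand setting of the counting is not given in the sources used here, so fragments of mt-Nd6 and of its opposite strand cannot be told apart.

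**Figure D4:**
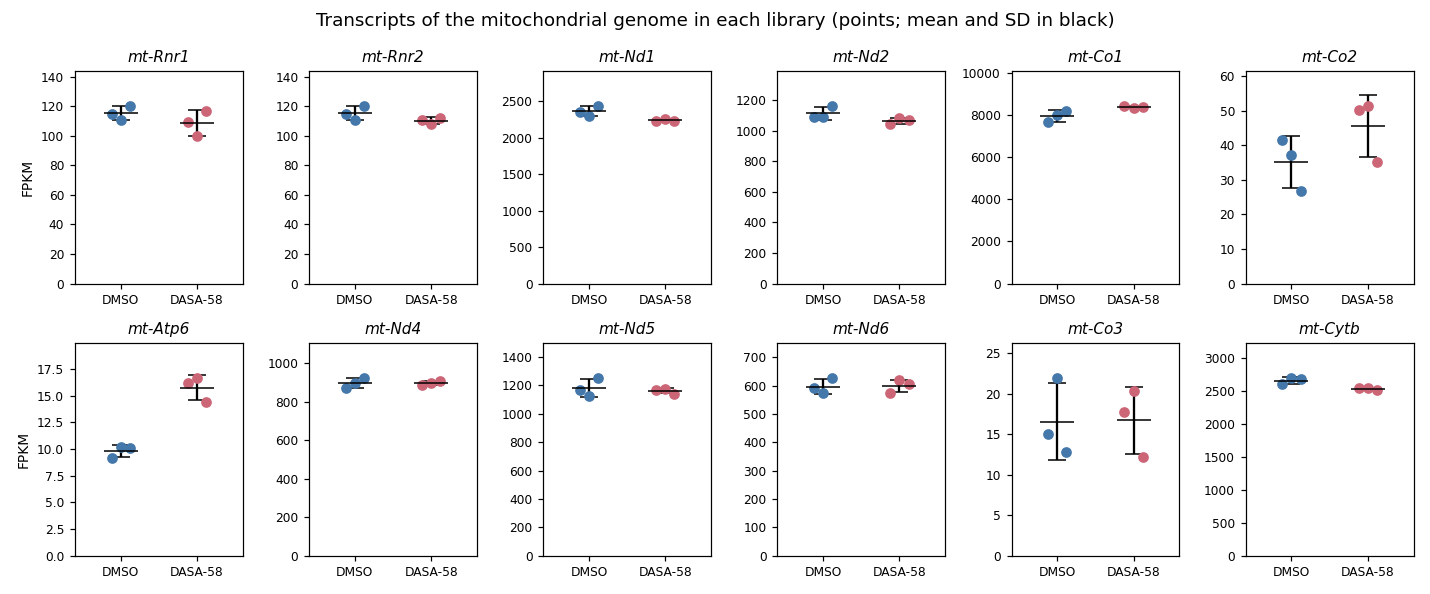
FPKM of transcripts of the mitochondrial genome (y axes, each from 0) in the 3 DMSO and 3 DASA-58 libraries (points), with the group mean and its SD (n = 3). mt-Co1 lies at 7653 to 8205 with DMSO and 8356 to 8419 with DASA-58, and mt-Atp6 at 9.12 to 10.2 and 14.4 to 16.6.

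Markers of the cell states in these cultures moved with the same contrast. Of 10 osteoclast markers 9 were tested and all 9 were lower, beside 7.28% of all genes tested, with log2 fold changes of -0.95 to -0.45. The summed level of the osteoclast markers was 778 to 833 FPKM with DMSO and 449 to 467 FPKM with DASA-58. Ctsk, the collagen-degrading cathepsin, was at 52.2%, Acp5, the tartrate-resistant phosphatase, at 53.2% and Nfatc1, the leading transcription factor of the lineage, at 72.1% of DMSO. Of 9 macrophage markers 4 were higher (Adgre1, Mrc1, Mertk and Cd68, at 111% to 131%), beside 4.24% of all genes tested, and Cd14 was lower at 89.9%. Their summed level was 16482 to 17320 FPKM with DMSO and 17426 to 19739 FPKM with DASA-58, of which most was Lyz2, the lysozyme gene, with means of 15156 and 16826 FPKM, overlapping groups and a limma adjusted p of 0.11. The macrophage receptor gene Csf1r, at means of 322 and 336 FPKM, and the other macrophage markers were among the genes tested. The part of these marker differences in the results for Myc and Ppargc1b was not tested.

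Of 7 neutrophil markers 6 were tested and S100a9, Camp and S100a8 were lower, beside 7.28% of all genes tested. Their limma adjusted p was 0.0034, 0.004 and 0.037, and with any 1 library left out 2 neutrophil markers were lower. The neutrophil markers had a sum of 126 to 132 FPKM with DMSO and 102 to 106 FPKM with DASA-58. S100a9, at means of 79.8 and 65.4 FPKM, and S100a8, at 31.8 and 26.6 FPKM, make up most of that sum, and these means lay above that of each of the 10 regulators in the same group. The T and NK cell markers summed to 5.76 to 6.64 and 5.64 to 6.45 FPKM, the B cell markers to 1.71 to 2.04 and 2.09 to 2.38 FPKM, the stromal markers to 34.5 to 36.7 and 35 to 35.9 FPKM, and the dendritic cell markers to 0.667 to 0.722 and 0.409 to 0.740 FPKM. No listed marker of the table was at 0 in all libraries. Few of these were abundant enough to test: 1 of 8 T and NK cell markers, 1 of 5 B cell markers, 3 of 7 stromal markers and 0 of 6 dendritic cell markers. The part of the neutrophil markers in the results for Myc and Ppargc1b was not tested.

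**Figure D5:**
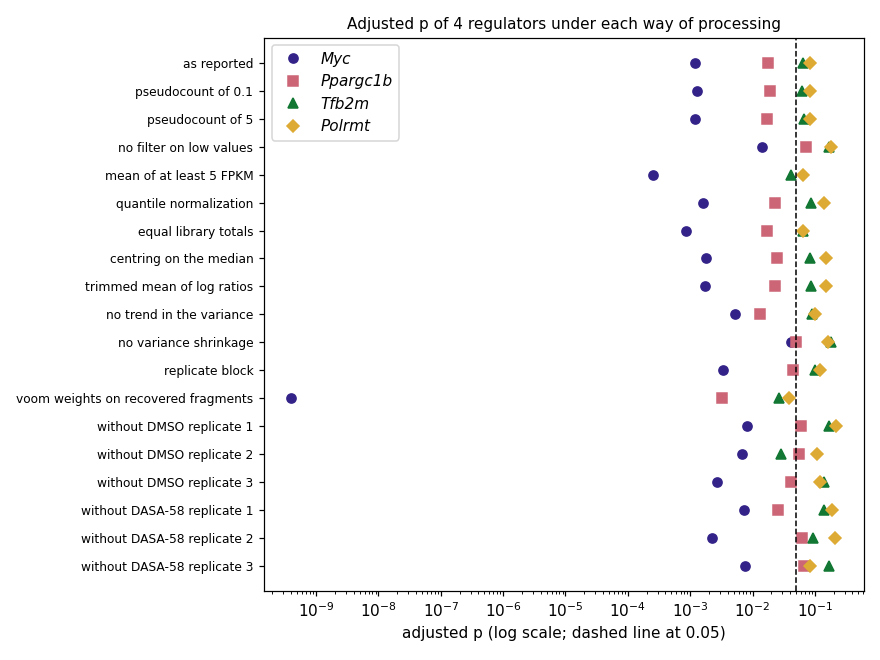
Benjamini-Hochberg adjusted p from limma (x axis, log scale, dashed line at 0.05) for 4 regulators under each way of processing (y axis), including leaving out each library. Myc lies left of the line throughout, with 0.041 without variance shrinkage as its largest value, whereas Ppargc1b lies on both sides, for example at 0.018 as deposited and 0.071 without a filter on low values.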

How the data were processed

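The authors deposited FPKM values per Ensembl gene for the 6 libraries. Per the labels' processing notes the tools were HISAT2 2.1.0 and HTSeq 0.6.0 with build mm8; the annotation, strand setting and FPKM tool are not given in the sources used here. The study's methods name the compound DASA-48 where the labels have DASA-58. Symbols were taken from GENCODE mouse release 21 (GRCm38) for 23455 of 23504 identifiers; its coordinates are given here and are not of the build named in the notes. FPKM steps gave whole fragments (within 0.02) in all libraries for 98.0% of genes, 21368 at the annotated exon length and 1676 at a fitted length, from which fragments and depth were computed. Because depth had to be inferred, fragments were used in an alternative (voom) and for counting errors, not for the main test.

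Genes averaging 1 FPKM or more were tested on log2(FPKM + 1) with limma 3.58.1 in R 4.3.3 (empirical Bayes with a variance trend, Benjamini-Hochberg adjustment over 10965 genes, threshold 0.05), which was tested on simulated data. Fold changes on this scale understate changes of low genes. Single ratios had an exact two-sided permutation test in SciPy 1.17.1. Members and lists were chosen with earlier results of these data known. Besides the 10 regulators, up to 3 genes per list were named, those with the smallest p among genes past the threshold; markers and mitochondrial transcripts could all be named, and Csf1r serves as a check of the cell type. Alternatives changed the pseudocount, filter, scaling, variance model, block and libraries. No deposited column was left unmapped.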

Additional observations from a re-analysis of the deposited data

How the results depend on the processing

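Myc passed the limma threshold downward under every alternative to the fit and with each library left out. The study called genes lower at p under 0.05 and a log fold change below -1, on its own scale. With these cutoffs put on the limma fit of log2(FPKM + 1), in either direction, 0 of the 10 regulators passed. No tested osteoclast marker passed on this scale either, with changes of -0.95 to -0.45, and the added 1 shrinks such values. Without it the log2 ratio of means was past -1 for Itgb3 (-1.10), Dcstamp (-1.09) and Ocstamp (-1.07). For the other tested osteoclast markers this ratio was -0.96 to -0.47, and among the regulators it was lowest for Myc, at -0.65. The share of all genes passing is not given here. The 798 genes lower became 372 without a filter on low values, 504 with centring on the median, 509 with TMM, 515 without a variance trend, 314 without variance shrinkage, 1343 with voom on recovered fragments and 385 to 604 with a library left out. The 465 genes higher became 257 without a filter, 227 without shrinkage, 754 with voom and 273 to 373 with a library left out. Regulators lower numbered 1 without a filter, 1 without shrinkage, 4 with voom and 1 to 2 with a library left out. Ppargc1b stayed at -0.330 but missed the threshold without a filter (adjusted p = 0.071) and without shrinkage (0.0501), and ranged from -0.375 to -0.306 with a library left out. Tfb2m passed at -0.207 among genes of at least 5 FPKM (where Ppargc1b and Nrf1 were not tested) and at -0.230 with voom. With a library left out Tfb2m ranged from -0.263 to -0.160 and passed in 1 of the 6 fits. Polrmt passed at -0.168 with voom and in 0 of the fits that left out a library. Polg turned to 0.024 with quantile normalization, 0.019 with median centring and 0.016 with TMM, and ranged from -0.056 to 0.044 with a library left out; Esrra ranged from -0.120 to 0.013. With the replicate block 579 genes were lower and 378 higher, and Myc (limma adjusted p = 0.0033) and Ppargc1b (0.0452) stayed lower. Same-numbered libraries deviated from their group means with correlations of -0.015, 0.016 and -0.016, so no shared deviation was seen. These correlations cannot show whether such libraries shared a mouse or culture. For the other named genes and list counts, 508 values kept their direction and side of the threshold (counts, within 1.5 times), 59 lost the threshold and 67 counts moved farther; with a library left out these were 222, 52 and 44. Lower genes made up 63.2% of those past the threshold as deposited, 45.8% with median centring, 45.9% with TMM, 49.5% with quantile normalization and 71.3% with equal totals. Depth limits Ppargc1b and Tfb1m, with 132 to 206 and 135 to 175 fragments a library. The causes of these changes were not tested.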
